A study of Rattus norvegicus with 42 samples.

Results

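The transcripts of 6 caspases (Casp1, Casp2, Casp6, Casp8, Casp9 and Casp12), of the caspase activator Apaf1 and of the caspase inhibitor Xiap were examined in the hippocampus of neonatal rats. They were taken by gene symbol and not by a cut on any measured value. The set was chosen with earlier results of these data known. All 8 symbols were found, as 11 transcript entries of the 15516 in the table of estimated counts, and 8 of these entries, from 7 genes, had enough counts to be tested. Casp12 and the Casp6 transcript NM_001271984 (listed at 2 positions) did not, and are described by their values.

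Caspases are proteases that cut other proteins after aspartate and are made as inactive precursors, so that a transcript level gives the supply of the precursor and not the activity of the enzyme. In the mitochondrial route, cytochrome c released from mitochondria binds Apaf1, which assembles into the apoptosome and activates Casp9, the initiator of this route, and Casp9 in turn activates the executioner caspases. Xiap binds and inhibits Casp9 and executioner caspases. In the death receptor route Casp8 is activated at receptors of the tumor necrosis factor family, and in inflammasomes Casp1 is activated and matures interleukin 1 beta and interleukin 18. Apaf1 and Casp9 take part in the removal of surplus neurons in the developing brain, and phenobarbital is known to trigger neuronal apoptosis in neonatal rodents.

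Male Sprague Dawley pups received a single intraperitoneal injection on postnatal day 7 (P7) of saline (VEH), of phenobarbital (PB, 75 mg/kg) or of levetiracetam (LEV, 200 mg/kg), PB and LEV being antiseizure drugs, and went back to the dam. Whole hippocampi were taken 72 h later, on P10, after perfusion under an overdose of pentobarbital, itself a barbiturate, in every group. The pups came from 2 orders, and each litter gave a single pup to each treatment group. After 1 VEH animal that its label marks as excluded was set aside, 13 VEH, 14 PB and 14 LEV animals were analysed, each a library of its own. The sample codes have 2 forms, 1 for animals 1 to 6 (the first series) and 1 for animals 7 to 14 (the second series) of each group, and the series was fitted as the batch.

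The 41 libraries held from 9499492 to 14488134 estimated counts each (the median was 11712468 for VEH, 11103898 for PB and 11338329 for LEV). All 9 markers of hippocampal neurons looked for were present, with a summed CPM (counts scaled to a common library total) of 2279 to 2822 in VEH, of 1872 to 2565 in PB and of 2262 to 2753 in LEV. Markers of other tissue varied between animals. The 6 choroid plexus markers summed to 3.45 to 7330 CPM over all animals, and the 6 skeletal muscle markers to at most 14.0 CPM in PB against 39.2 in VEH and 47.4 in LEV. The part of these differences in the values of the caspases, Apaf1 and Xiap was not tested. In bulk tissue, fewer cells of a type and less RNA per cell cannot be told apart.

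None of the 8 tested entries differed between the treatments. A transcript was counted as differentially expressed when the adjusted p-value of edgeR's quasi-likelihood test (Benjamini-Hochberg adjustment over 13062 transcripts) was under 0.05 and its fold change was at least 0.322 on the log2 scale, a difference of 25% from the lower group. Between PB and VEH 0 of 8 entries passed, against 79 of all transcripts tested (0.605%). Between LEV and VEH 0 of 8 passed, against 0 of all (0%), and between PB and LEV 0 of 8 passed, against 76 of all (0.582%). With the adjusted p-value alone 0 of 8 passed in each comparison, against 704 (5.39%), 1 (0.00766%) and 581 (4.45%) of all transcripts. No entry had an unadjusted p-value under 0.05 in any of the 3 comparisons, against 2639 (20.2%), 763 (5.84%) and 2565 (19.6%) of all transcripts. DESeq2 in place of edgeR also gave 0 of 8 in each. With 8 entries, a count of 0 is near the share of all transcripts that passed the limits. For the unadjusted p-value the shares were larger in both comparisons with PB, and whether 0 of 8 is below them was not tested. The 8 entries also hold Casp6 NM_031775 at both of its positions, with the same values. The intervals of each gene are given for these reasons.

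**Figure D1:**
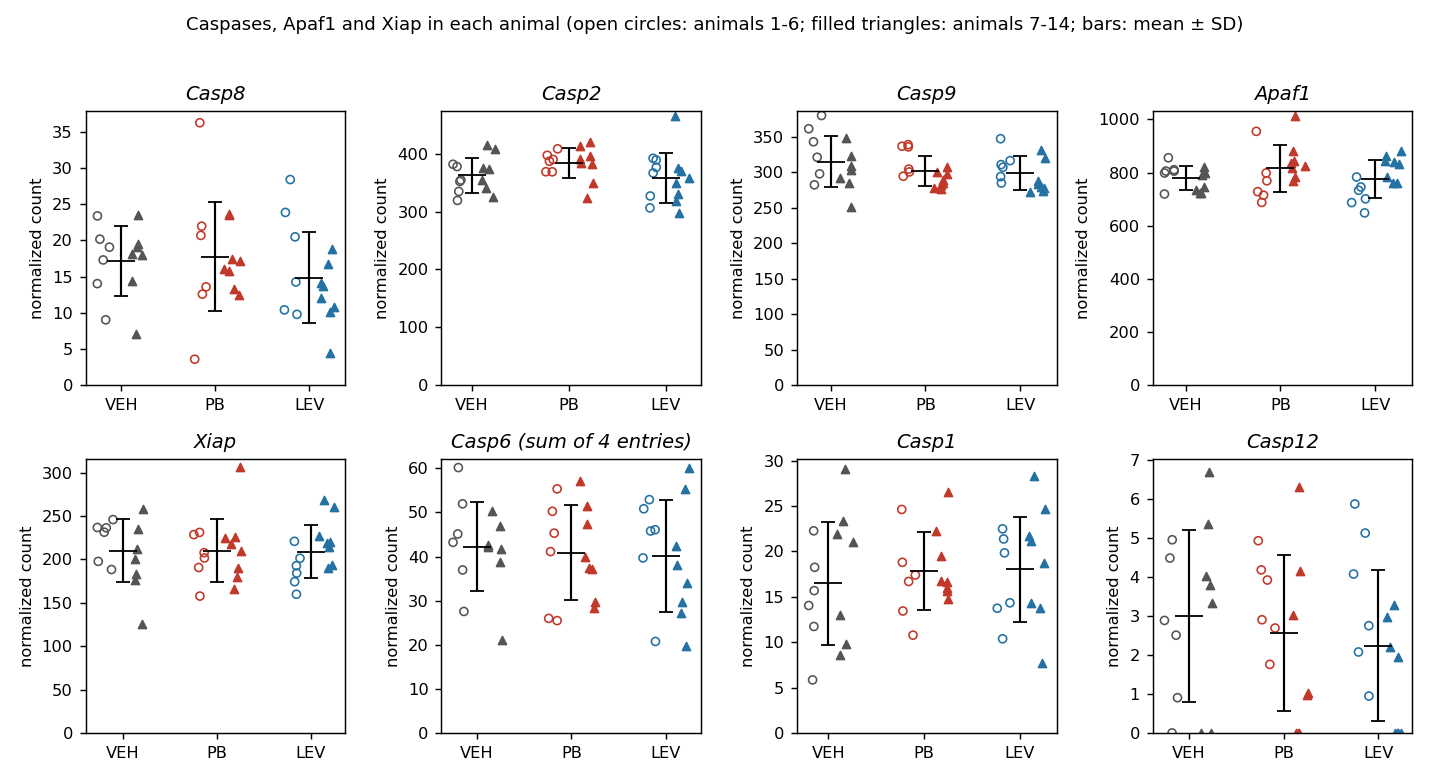
Normalized counts (y axis of each panel, starting at 0) of the 8 genes in each of 41 animals by treatment (x axis), with open circles for animals 1 to 6, filled triangles for animals 7 to 14 and bars for the mean ± SD of the 13 VEH, 14 PB and 14 LEV animals. The 3 groups overlap in every panel, and Casp12 lies between 0 and 6.69.

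Casp8, the initiator of the death receptor route, had few counts. Its normalized count (the count scaled by the effective library size) was 7.12 at the lowest, 18.2 at the median and 23.5 at the highest in VEH, 3.58, 16.6 and 36.2 in PB, and 4.39, 13.9 and 28.4 in LEV. The lowest and the highest value of all 41 animals were both in PB (animals 4 and 1). In the same order the means were 17.1 ± 4.89, 17.7 ± 7.52 and 14.8 ± 6.32 (SD, n = 13, 14 and 14, as for all means below unless given). The log2 fold change was 0.05 in PB (95% interval -0.39 to 0.49, adjusted p = 0.926 by edgeR's quasi-likelihood test) and -0.21 in LEV (-0.65 to 0.24, adjusted p = 0.949). The limit for a fall lies inside both intervals and that for a rise inside the first, so that changes of this size were not detectable for Casp8 at this depth.

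Casp2, an initiator that is activated on the PIDDosome in response to DNA damage and other stress, had a mean count of 370 per library, against 16.7 for Casp8. Its normalized count ran from 319 over a median of 354 to 416 in VEH, from 323 over 388 to 420 in PB, and from 297 over 363 to 465 in LEV. The means were 363 ± 29.7, 384 ± 25.6 and 359 ± 43.2. In 12 of 14 PB animals Casp2 was above the mean of the VEH animals of its own series, and in 12 of 14 above the LEV mean of its series. These counts were not tested and leave out the error of the mean. The log2 fold change was 0.083 against VEH (SE 0.052, 95% interval -0.02 to 0.19, adjusted p = 0.383) and 0.099 against LEV (SE 0.051, interval -0.003 to 0.20, unadjusted p = 0.0569, adjusted p = 0.270), both by edgeR's quasi-likelihood test. The second of these was the smallest unadjusted p-value of the 8 entries in the 3 comparisons, and it missed the threshold. LEV and VEH differed by -0.016 (SE 0.052).

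Casp9, the initiator of the mitochondrial route, had normalized counts of 251 (median 309, highest 380) in VEH, 276 (299, 339) in PB and 272 (291, 347) in LEV. The VEH animals reached both the lowest and the highest value, so the drug groups lay within the range of VEH. Casp9 was above the VEH mean of its own series in 4 of 14 PB and 3 of 14 LEV animals, also not tested. The means were 315 ± 35.9, 302 ± 21.3 and 299 ± 23.3. The log2 fold change was -0.059 in PB (SE 0.045, interval -0.15 to 0.03, adjusted p = 0.506) and -0.072 in LEV (SE 0.045, interval -0.16 to 0.02, adjusted p = 0.884) by edgeR's quasi-likelihood test. Between the drugs it was 0.013 (SE 0.044).

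Apaf1, the scaffold of the apoptosome, ran from 719 (median 798) to 856 in VEH, from 687 (808) to 1014 in PB and from 648 (772) to 881 in LEV. The 2 highest animals, PB 7 and PB 2, were both in PB, while the lowest was LEV 6. Not only these 2 stood above every VEH animal, but also PB 10 (880), LEV 7 (881) and LEV 8 (861). The means were 779 ± 44.6, 816 ± 89.5 and 776 ± 69.7, so the spread was wider in PB and in LEV than in VEH, a difference that was not tested. The log2 fold change was 0.060 in PB (SE 0.046, interval -0.03 to 0.15, adjusted p = 0.508), -0.014 in LEV (SE 0.046) and 0.074 between PB and LEV (SE 0.045, adjusted p = 0.385), all by edgeR's quasi-likelihood test.

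Xiap, the inhibitor of Casp9 and of executioner caspases, was nearly equal on average in the 3 groups, at 210 ± 36.4, 210 ± 36.3 and 209 ± 30.5. Its lowest, median and highest normalized counts were 125, 212 and 259 in VEH, 158, 208 and 307 in PB and 160, 208 and 268 in LEV. The extremes were VEH 9 and PB 7. The log2 fold change was -0.0045 in PB (interval -0.19 to 0.18, adjusted p = 0.985 by edgeR's quasi-likelihood test) and -0.011 in LEV (-0.19 to 0.17, adjusted p = 0.993).

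For Casp2, Casp9, Apaf1 and Xiap, the 95% intervals of all 3 comparisons stayed within 0.322 on the log2 scale in either direction. The widest of them, those of Xiap, ran from 0.875 to 1.12 times VEH after LEV and from 0.879 to 1.13 times VEH after PB. These intervals are for 1 gene at a time and carry no correction for the number of genes. They also take the drug effect as the same in both series. The values of each series alone, with larger errors, are given below.

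**Figure D2:**
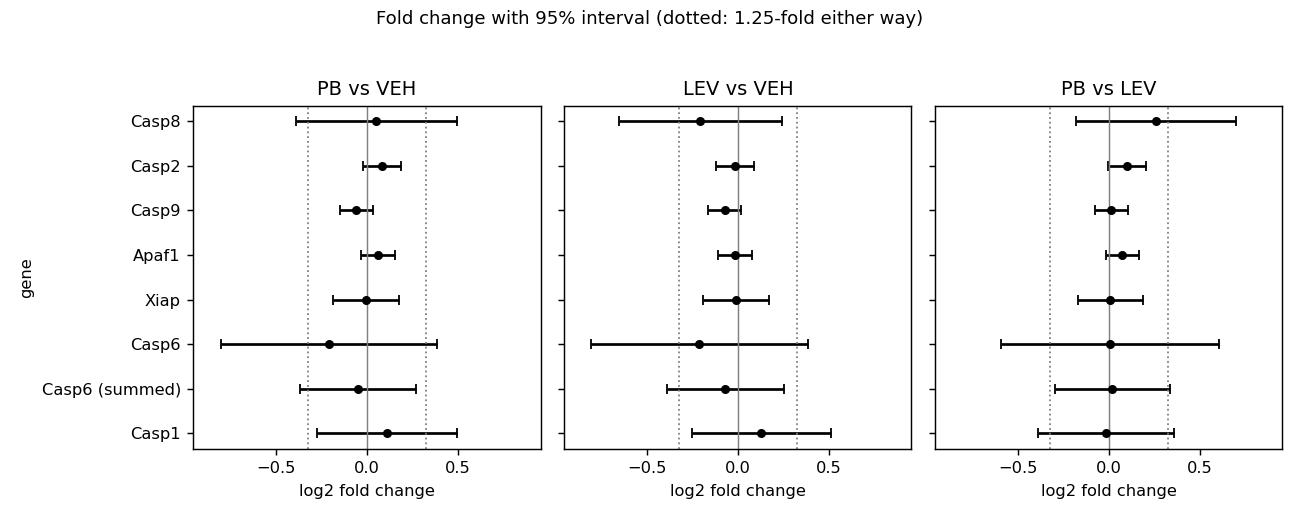
Log2 fold change (x axis) of each tested gene (y axis) in 3 panels (PB against VEH, LEV against VEH, PB against LEV), with points for the estimate, bars for the 95% interval and dotted lines 0.322 to either side of 0. The intervals of Casp2, Casp9, Apaf1 and Xiap lie between the dotted lines in each panel, and those of Casp8, Casp1 and Casp6, single and summed, cross at least 1 of them.

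Casp1, the inflammatory caspase of the inflammasome, had normalized counts of 5.84 to 29.1 in VEH, 10.8 to 26.6 in PB and 7.67 to 28.3 in LEV, with medians of 15.7, 16.7 and 19.3. The groups overlapped over most of their range. The means were 16.5 ± 6.79, 17.8 ± 4.27 and 18.04 ± 5.81, and the log2 fold change was 0.11 in PB (SE 0.19, interval -0.27 to 0.49) and 0.13 in LEV (SE 0.19, interval -0.25 to 0.51). A rise of 25% lies inside both intervals and was not detectable at this depth.

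Casp12, a caspase of the inflammatory group that rodents express and that has been linked to stress of the endoplasmic reticulum, was near the limit of detection. Its counts were between 0 and 7 per library, and 3 of 13 VEH, 3 of 14 PB and 4 of 14 LEV libraries had 0. The mean normalized counts were 2.99 ± 2.21, 2.56 ± 2.00 and 2.23 ± 1.93. Fitted with no filter on low counts, its log2 fold change was -0.25 in PB (SE 0.49) and -0.46 in LEV (SE 0.50), with errors as large as the changes.

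Casp6, an executioner caspase that cuts nuclear lamins, was listed 4 times. The transcripts NM_031775 and NM_001271984 each stood at 2 positions of chromosome 2 of the rn6 build, chr2:230186214-230198556 and chr2:235341374-235353716, which have the same length. In 41 of 41 animals the estimated counts at the 2 positions were identical, and in 41 of 41 the 4 entries added up to a whole number within 0.01, although each alone was not whole. The deposited values thus held a whole number of Casp6 reads per animal, shared out between 4 entries by the authors' estimation, with equal parts for the 2 positions.

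The division between the 2 transcripts varied from animal to animal. NM_031775 took 0.635% of the Casp6 counts in VEH 13, where it was lowest, 83.1% at the median and 99.99% at the highest. It took over 95% in 12 animals, and in 7 animals NM_001271984 took more than NM_031775. By group the share was 79.0% ± 30.8 in VEH, 69.9% ± 25.7 in PB and 76.9% ± 23.98 in LEV (SD, n = 13, 14 and 14), and these differ by less than their SD. The coefficient of variation over the 41 animals was 109% for NM_001271984, 44.9% for NM_031775 and 26.8% for the sum of the 4 entries, so the sum was steadier than either transcript.

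**Figure D3:**
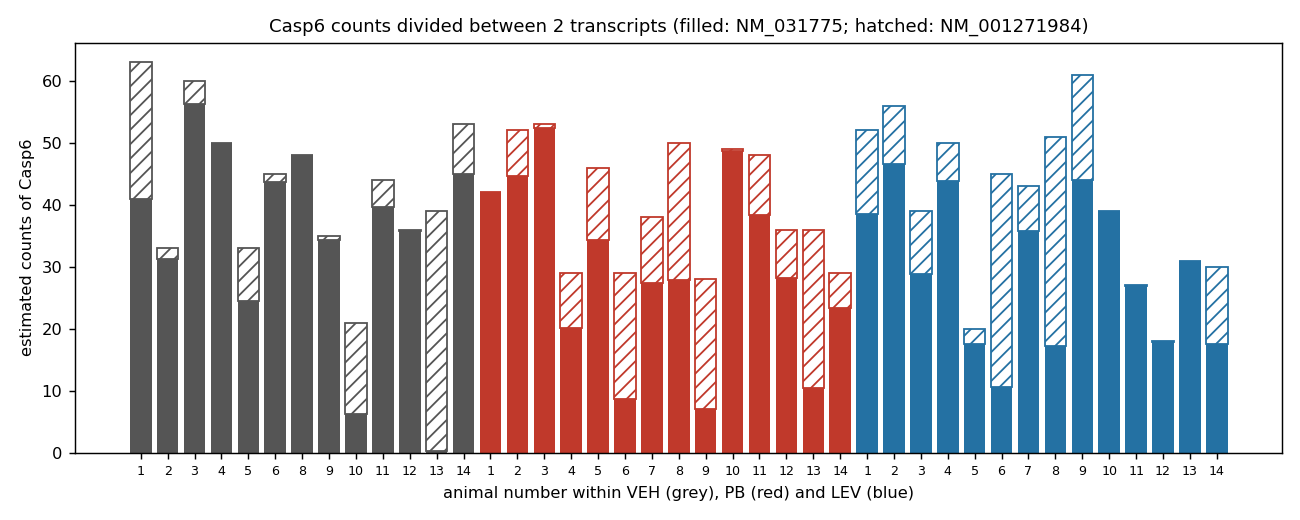
Estimated counts of Casp6 summed over both positions (y axis) in each animal (x axis, by number within VEH in grey, PB in red and LEV in blue), filled for NM_031775 and hatched for NM_001271984. The filled part takes over 95% of the bar in 12 of 41 animals and 0.635% in VEH 13.

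The summed Casp6 level gave a narrower interval than the single entry. Its normalized count was 42.2 ± 10.1 in VEH, 40.8 ± 10.8 in PB and 40.2 ± 12.7 in LEV, with ranges of 21.0 to 60.2, 25.5 to 57.1 and 19.8 to 60.1 that cover each other nearly whole. The log2 fold change of NM_031775 was -0.21 in PB (interval -0.80 to 0.39) and -0.21 in LEV (-0.80 to 0.38). Summed per gene, it was -0.050 in PB (interval -0.37 to 0.27, adjusted p = 0.893 by edgeR's quasi-likelihood test over 12168 genes) and -0.069 in LEV (interval -0.39 to 0.25, adjusted p = 0.984). NM_001271984, which failed the filter, had a log2 fold change of 0.46 in both comparisons when fitted with no filter, with an SE of 0.61.

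The series were compared in the same model. Between the second and the first series, 0 of 8 entries passed both limits, against 538 of all transcripts (4.12%), and 1 of 8 passed the adjusted p-value alone, against 3946 (30.2%). That one was Casp9, which was lower in the second series by a log2 fold change of -0.12 (SE 0.037, adjusted p = 0.0101 by edgeR's quasi-likelihood test). With the excluded VEH animal kept, so that there were 14, the value was -0.098 and Casp9 no longer passed. Casp9 averaged 331 ± 37.5 in the first and 302 ± 30.7 in the second series in VEH, 319 ± 20.7 and 290 ± 11.2 in PB, and 310 ± 21.6 and 291 ± 22.2 in LEV. The mean was lower in the second series in each treatment, while single animals overlapped. Whether the 2 series stand for the 2 orders of animals, a preparation or a sequencing run is not given, and these cannot be told apart.

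For Apaf1 and Xiap the drug groups stood below VEH in the first series and above it in the second. Apaf1 in LEV averaged 716 ± 47.6 against 799 ± 44.3 in VEH in the first series (n = 6 and 6) and 820 ± 46.2 against 762 ± 40.4 in the second (n = 8 and 7). Xiap in LEV averaged 189 ± 21.3 against 223 ± 23.7 in the first series and 224 ± 28.2 against 199 ± 43.3 in the second. Fitted in each series alone, the log2 fold change of LEV against VEH was -0.15 (SE 0.067) and 0.10 (SE 0.052) for Apaf1, and -0.23 (SE 0.098) and 0.17 (SE 0.13) for Xiap. In LEV the sign also changed for Casp8, from 0.067 (SE 0.38) to -0.44 (SE 0.25), and for Casp2, from 0.029 (SE 0.063) to -0.051 (SE 0.079). No value within a series passed the adjusted threshold, the nearest being Apaf1 in PB in the second series (log2 fold change 0.15, SE 0.052, adjusted p = 0.0996 by edgeR's quasi-likelihood test).

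The difference between the series was tested itself, as a series-by-treatment term. For the LEV effect 0 of 8 entries passed, against 110 of all transcripts by the adjusted p-value (0.842%) and 94 by both limits (0.72%). For the PB effect 0 of 8 passed, against 9 (0.0689%). The difference in the LEV effect was 0.26 on the log2 scale for Apaf1 (SE 0.085, unadjusted p = 0.00351, adjusted p = 0.136) and 0.41 for Xiap (SE 0.17, unadjusted p = 0.0224, adjusted p = 0.296), and in the PB effect 0.19 for Apaf1 (SE 0.084, unadjusted p = 0.0273, adjusted p = 0.388) and 0.25 for Xiap (SE 0.17, adjusted p = 0.634), by edgeR's quasi-likelihood test. After adjustment none of them passed. The pooled drug effects of Apaf1 and Xiap are means over 2 series whose estimates had opposite signs, a difference that was not established. In PB, Apaf1 in the first series (-0.043, SE 0.067) and Xiap in the second (0.12, SE 0.13) were smaller than their SE.

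**Figure D4:**
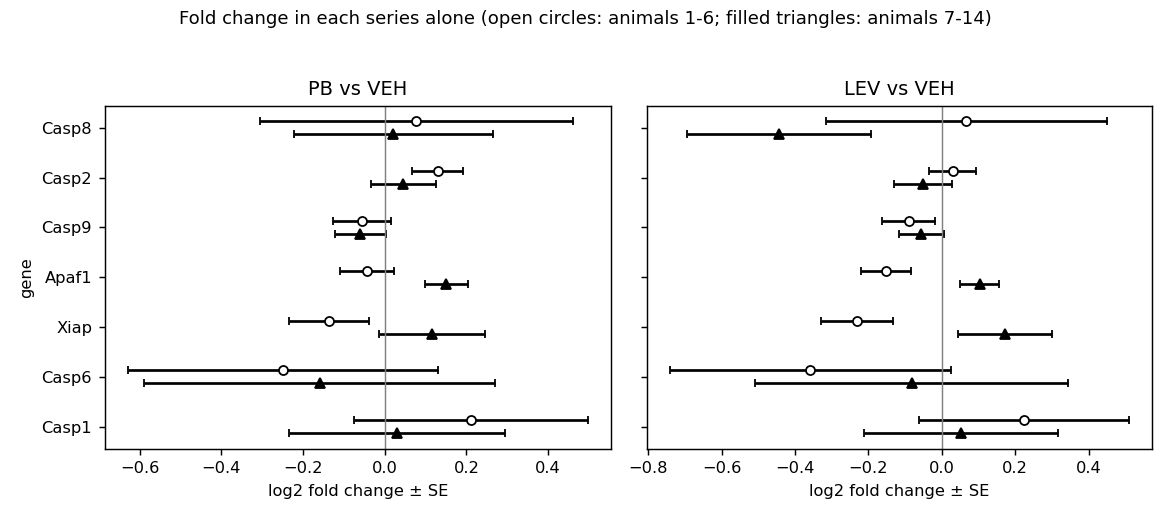
Log2 fold change ± SE (x axis) of each tested gene (y axis) fitted in each series alone, for PB against VEH and LEV against VEH, with open circles for animals 1 to 6 and filled triangles for animals 7 to 14. For Apaf1 and Xiap the circles lie below 0 and the triangles above 0 in both panels.

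Apaf1 and Xiap also varied together between animals. With the means of treatment and series removed, their log2 CPM correlated over the 41 animals with Pearson's r = 0.52 (two-sided permutation test, p = 0.00041, adjusted p = 0.00861 over 21 pairs of genes) and Spearman's rho = 0.45 (permutation p = 0.00336, adjusted p = 0.0706). The pair had the smallest p-value of the 21, and the correlations were computed after the levels had been seen. Without PB 7 and VEH 9, the animals farthest from the median of Xiap, r was 0.38 (n = 39, permutation p = 0.0153). It was 0.30 in the first series (n = 18, permutation p = 0.229) and 0.53 in the second (n = 23, permutation p = 0.00971). The relation thus passed adjustment by Pearson's r only and missed the threshold in the first series. Treatment and series were removed as additive terms over the 41 animals. The drug shifts that differed between the series, in the same direction for both genes, therefore stayed in those values. The correlations within a series do not hold these shifts. The values also share the libraries and their scaling. The part of the shifts, the libraries or the scaling in the relation was not tested.

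**Figure D5:**
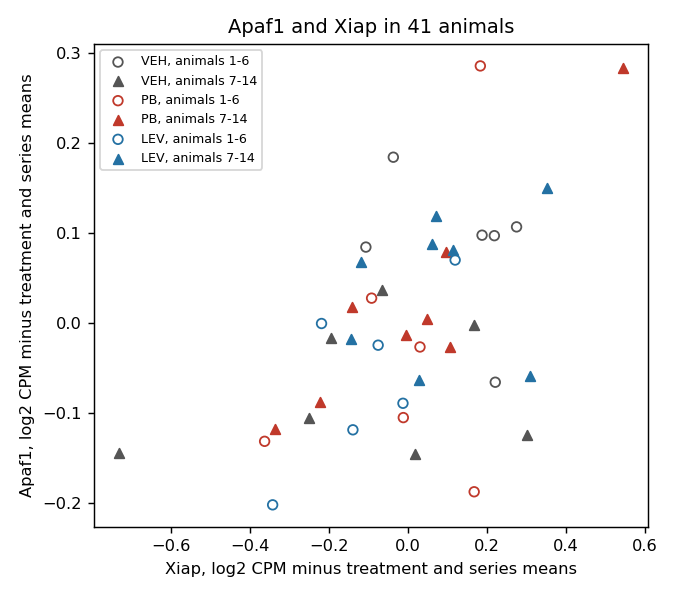
Apaf1 (y axis) against Xiap (x axis) in 41 animals, both as log2 CPM minus the means of treatment and series, with open circles for animals 1 to 6, filled triangles for animals 7 to 14 and colors for VEH, PB and LEV. The cloud slopes upward (Pearson's r = 0.52), with PB 7 at the far right and VEH 9 at the far left.

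Of the other 20 pairs none passed adjustment. The next was Casp6 with Casp9 (r = -0.38, permutation p = 0.0153, adjusted p = 0.161). Apaf1 with Casp9, which act in the same complex, was among the pairs that did not pass.

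The transcripts that followed each gene most closely over the 41 animals were found by the root mean square difference of standardized log2 CPM, again without the means of treatment and series. For Apaf1 they were Znrf2 (0.68) and Dcx (0.70), the latter encoding doublecortin, a microtubule protein of immature neurons, and for Xiap they were Vps13a (0.68) and Eea1 (0.69). The median over all tested transcripts was 1.42 for both genes, on a scale where lower is more alike. The neighbors of the remaining genes were less close. They were Esyt2 (0.82) and Nfxl1 (0.88) for Casp2, Cygb (0.92) and Necab2 (0.93) for Casp9, Uvssa (0.91) and Vwa5a (0.96) for Casp6, Hsd17b10 (0.94) and Gin1 (0.96) for Casp1, and Ngrn (0.95) and Dnajb11 (0.95) for Casp8. The neighbors of Casp6 are those of the entry NM_031775, whose share of the Casp6 counts varied between animals. The correlations of Casp6 used the sum of its entries instead. All neighbors are descriptions of 41 libraries, and no member of the set was among the 2 nearest of another.

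Casp1 and Apaf1 stand in the study's list of genes enriched in microglia, so the level of each tested gene was set against that of microglia markers (12 of 14 in the table, summing to 261 to 315 CPM in VEH, 229 to 312 in PB and 236 to 316 in LEV). Of 7 relations none passed adjustment. The nearest was Casp1, with Pearson's r = 0.33 (n = 41, two-sided permutation test, p = 0.0382, adjusted p = 0.267) and Spearman's rho = 0.31 (adjusted p = 0.164). It was 0.43 in the first and 0.31 in the second series, and 0.27 without the 2 animals farthest from the median marker level. Apaf1 went the other way, with r = -0.056 (permutation p = 0.727), -0.29 in the first and -0.15 in the second series. With C1qa, C1qb and C1qc left out of the markers, r was -0.20 for Apaf1 (adjusted p = 0.428) and 0.33 for Casp1 (adjusted p = 0.248) by the same test. Within the series, Apaf1 then had -0.58 in the first (permutation p = 0.0101, not adjusted) and -0.18 in the second.

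Around these genes, the rest of the pathway was described by a list of 46 genes, of which 42 were in the table and 38, with 41 transcripts, could be tested. None of the 41 passed both limits in any comparison of treatments. Their median log2 fold change was 0.049 in PB, 0.011 in LEV and 0.042 between PB and LEV, beside 0.0046, 0.00033 and 0.0033 over all transcripts tested. An unadjusted p-value under 0.05 was found for 8, 1 and 4 of the 41, while among all transcripts tested the share was 20.2%, 5.84% and 19.6%. The counts of the pathway list were near or below these shares.

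Among the other caspases, the inflammatory Casp4 had a log2 fold change of 0.054 in PB (SE 0.14) and did not pass. The death ligands Faslg, Tnf and Tnfsf10 had too few counts to be tested. Of the 5 death receptors, Fas had the largest fold change, 0.48 in PB (SE 0.24, adjusted p = 0.237 by edgeR's quasi-likelihood test), at a level of 8.25 ± 4.05 in VEH and 11.7 ± 4.80 in PB. Casp4 and Fas were chosen for mention after their values were seen.

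The pathway genes with the smallest p-values in PB were Acin1, Cycs and Lmnb1. Acin1, which encodes a nuclear protein cut by caspases during chromatin condensation, was at 2134 ± 137 in VEH and 2296 ± 168 in PB (log2 fold change 0.11, SE 0.034, adjusted p = 0.0537 by edgeR's quasi-likelihood test). Cycs, which encodes the cytochrome c that Apaf1 binds, was at 3051 ± 289 and 2750 ± 373 (-0.15, SE 0.052, adjusted p = 0.0708). By this test both missed the threshold and were far under the fold change limit. Each passed the adjusted p-value under at least 1 of the alternatives given at the end. In LEV they included Acin1 (0.082, SE 0.034, adjusted p = 0.806) and Il18, a substrate of Casp1 (-0.43, SE 0.26, adjusted p = 0.856).

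Lmnb1, which encodes the nuclear lamina protein lamin B1, a caspase substrate, was the only pathway transcript to pass the adjusted p-value in a comparison of treatments. This was 1 of 41 between PB and LEV, against 581 of all transcripts tested (4.45%), and so not above the share of all. Lmnb1 was at 412 ± 41.5 in PB, 351 ± 26.1 in LEV and 369 ± 54.1 in VEH. PB was above LEV by a log2 fold change of 0.23 (SE 0.059, adjusted p = 0.0181 by edgeR's quasi-likelihood test), under the fold change limit, and above VEH by 0.16 (SE 0.060, adjusted p = 0.101). In the second series alone PB was above VEH by 0.31 (SE 0.064, adjusted p = 0.01004 by the same test), whereas in the first series the value was -0.020 (SE 0.093). The difference of Lmnb1 between PB and LEV was 0.13 in the first series (adjusted p = 0.574) and 0.31 in the second (adjusted p = 0.0173). For Lmnb1 no test of a difference between the series is given, and a pass in only 1 of them does not show such a difference.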

How the data were processed

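Total RNA of 1 hippocampus sample per animal was sequenced in 42 libraries. The authors trimmed the reads, aligned them to rn6 with STAR 2.7.3a and quantified RefSeq transcripts in Partek by its E/M method. These estimated counts were deposited without normalization. The authors' table of DESeq2 comparisons was not used. Its columns hold p-values, fold changes and group means.

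Rounded estimated counts were fitted in edgeR 4.0.16 under R 4.3.3: TMM normalization, effective library sizes of 9588079 to 13786159, filterByExpr with treatment as group (minimum count 10; 13062 of 15516 transcripts kept), and glmQLFit and glmQLFTest on the 3 groups with the series as an additive term. Another model held series-by-treatment terms. Intervals are 95% from the fitted SE. The test was also run on simulated data with no series effect and with changes larger than 25%. Those changes were set in transcripts with higher mean counts than Casp1, Casp8 and Casp6 NM_031775. That run does not cover changes of 25% or transcripts as low as these. Rounding the 4 Casp6 entries separately can move their small counts, so counts were also summed per gene symbol.

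Correlations used log2 CPM (prior count 2) and 100000 permutations in Python 3.11.15 with scipy 1.17.1. Low counts (Casp1, Casp6, Casp8, Casp12) limit precision. Depth is the total count per library. Named genes were the 8 chosen ones, the pathway genes called or with the 3 smallest p-values for each drug, and the 2 nearest transcripts of each tested gene. Some pathway genes are not reported here. The genes and lists were chosen with earlier results of these data known. Same-numbered animals of different groups did not vary together (40 pairs, correlations of -0.33 to 0.33, 10 over 0.1), so no pairing by number was used. The labels give no litters and do not say whether equal numbers mark littermates. The litter could therefore be neither fitted nor tested. Alternatives were DESeq2 1.42.0, its size factors, no filter, counts summed per symbol, no series term, series-by-treatment terms, each series alone, subtraction of the series effects, all 14 VEH animals, animal number as block, and each animal left out.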

Additional observations from a re-analysis of the deposited data

Results flagged for a closer look

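The VEH animal that its label marks as excluded, and that entered no comparison, lay above the other 13 VEH animals for 2 of the genes, in CPM, the count scaled to the library total. Casp9 was at 34.2 CPM in it, against 22.6 to 31.9 in the others, and Casp6 NM_031775 at 2.73 CPM, against 0.0117 to 2.37. Casp2 lay below the range of the others (15.0 against 27.7 to 36.8 CPM), as did Apaf1 (59.3 against 60.4 to 74.0).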

How the results depend on the processing

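In the 11 alternatives and with each of the 41 animals left out, 0 of the tested caspase, Apaf1 and Xiap entries passed the limits between treatments. The lowest adjusted p-value was 0.0867 with an animal left out (Casp2, PB against LEV) and 0.0996 in the alternatives (Apaf1, PB against VEH, second series alone). Small fold changes did change sign: 14 of 231 values under the alternatives and 56 of 861 with an animal left out, 0 of them past the limits. The cause was not tested.

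With all 14 VEH animals, the log2 fold change was 0.022 for Xiap in PB, 0.035 for Casp2 and 0.016 for Xiap in LEV, and -0.016 for Casp2 between series. The series difference of the PB effect became -0.12 for Casp6 and 0.0082 for Casp2, and that of the LEV effect 0.018 for Casp2 and -0.031 for Casp9. Casp9 then no longer passed between series (-0.098), which left 0 entries. In the first series alone, PB against VEH gave -0.043 for Apaf1 and -0.020 for Lmnb1, and LEV against VEH 0.029 for Casp2, 0.067 for Casp8 and 0.14 for Il18. In the second alone, Xiap was 0.12 in PB and 0.17 in LEV, Apaf1 0.10 in LEV, and PB against LEV was -0.077 for Casp6, -0.0044 for Casp9 and -0.057 for Xiap. With the animal number as a replicate block, PB against LEV was -0.036 for Casp6 and 0.026 for Casp1, with no call among the 8 entries. The correlation with microglia markers was 0.15 for Casp2 in the first series, and 0.18 for Casp8, -0.18 for Casp9 and -0.21 for Xiap in the second.

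With an animal left out, the ranges that crossed 0 were, against VEH, -0.066 to 0.15 for Casp8 and -0.055 to 0.024 for Xiap in PB, and -0.048 to 0.0035 for Casp2, -0.027 to 0.0035 for Apaf1 and -0.063 to 0.016 for Xiap in LEV. Between PB and LEV they were -0.087 to 0.096 for Casp6, -0.083 to 0.039 for Casp1 and -0.045 to 0.037 for Xiap.

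Over all transcripts, the count of calls moved from 79 in PB against VEH to between 17 (first series alone) and 168 (second series alone), and from 0 in LEV against VEH to as many as 170 (first series alone). Between PB and LEV it moved from 76 to between 24 (first series alone) and 115 (series effects subtracted, then DESeq2). The PB effect by series had 9 calls and between 1 (all 14 VEH animals) and 45 (DESeq2), and the LEV effect by series 110 by the adjusted p-value and between 6 and 207 under the same settings. Acin1 passed the adjusted p-value in PB against VEH with DESeq2 (0.11), with series-by-treatment terms (0.11) and after subtraction of the series effects (0.11), and in LEV in the first series alone (0.16). Cycs passed it in PB against VEH after subtraction of the series effects, followed by DESeq2 (-0.15).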
